A study of Rattus norvegicus with 24 samples.

Results

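The genes described here are 10 in number: the fibrillar collagen genes Col1a1, Col1a2 and Col3a1, the leucine-rich proteoglycan genes Ogn and Fmod, the growth factor gene Igf2 and its binding protein gene Igfbp2, Ptgds, Coch and Cdh1. They were chosen by name, as every probe whose gene name in the files, without a suffix for predicted or mapped genes, is one of these 10. This gave 15 probes for 10 genes, of 41012 probes and 35537 genes on the array. The names were proposed with ratios and saline levels of these same arrays in view. All values of the 10 genes are therefore a description, without a test.

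Rats of the Wistar strain, all male, received 1 intraperitoneal injection of MK-801, a blocker of the ion channel of NMDA-type glutamate receptors, or of saline. Doses were 0.08 mg/kg (low) or 0.16 mg/kg (high), and brains were taken 40 min later. Of 9 rats, 3 were given saline, and their age is 9 weeks in the sample labels and 10 weeks in the design text. Cortex, hippocampus, amygdala, ventral striatum, hypothalamus and midbrain were dissected, and RNA of treated rats was hybridised against RNA of saline rats of the same region on 24 arrays of 2 colours. A region at a dose (12 such combinations) was measured on 2 arrays with swapped dyes: treated RNA was in Cy5 on the first and in Cy3 on the second. The number of rats behind an RNA sample is not in the labels, nor is it stated if the swapped arrays used separate samples. They therefore count as 1 replicate, and the SD given with a pair is that of its 2 arrays. Both doses share the group of saline rats, and all 4 arrays of a region lie on 1 slide, so region and slide cannot be told apart.

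The brain is wrapped in the meninges, layers of fibroblasts with a barrier of arachnoid cells, which lie on its outer surface and follow vessels into it. Meningeal fibroblasts secrete fibrillar collagens and the small leucine-rich proteoglycans that sit on collagen fibrils, and are known in the brain as a source of Igf2 and of Ptgds, the synthase of prostaglandin D2 that is also a carrier protein of cerebrospinal fluid. Neurons and astrocytes make little fibrillar collagen. Several members are not restricted to this tissue: Igf2 and Igfbp2 are also made by the choroid plexus, Ptgds also by oligodendrocytes, and Cdh1, the epithelial cadherin, by many epithelia as well as by arachnoid cells.

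The arrays were of uneven brightness, with a median net signal of 47.3 to 357 intensity units per channel, 60.3% to 89.7% of spots well above background and 236 to 708 spots per array marked as outliers. In the saline channels, marker genes were higher in their own region than in the mean of the other 5 for 4 of 4 cortical, 4 of 5 hippocampal, 7 of 7 striatal, 5 of 5 midbrain and 5 of 7 hypothalamic genes. No list was set for the amygdala. Because the gene lists were chosen with earlier results of these data known, they are no independent check of the label. A list of 38 other meningeal and fibroblast genes was set beside the members. Of these, 33 were on the array and 29 were well above background in every region of the low-dose arrays, among them Dcn, Fn1, Crabp2 and Slc6a13.

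In the low-dose cortex all 10 genes were below saline, on both arrays. Their median log2 ratio of treated over saline was -1.12, with a range from -1.36 for Ogn to -0.94 for Igfbp2, against a median of 0.002 over all genes. Ratios past 1.5-fold lower were seen for 10 of the 10, beside 0.225% of the 19996 genes with a value. In the order of all genes of this combination they held 10 of the 15 lowest places. In the high-dose cortex the same genes had a median of 0.06 and lay between -0.11 and 0.13. In bulk tissue, fewer cells of a type and less RNA per cell give the same ratio and cannot be told apart.

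**Figure D1:**
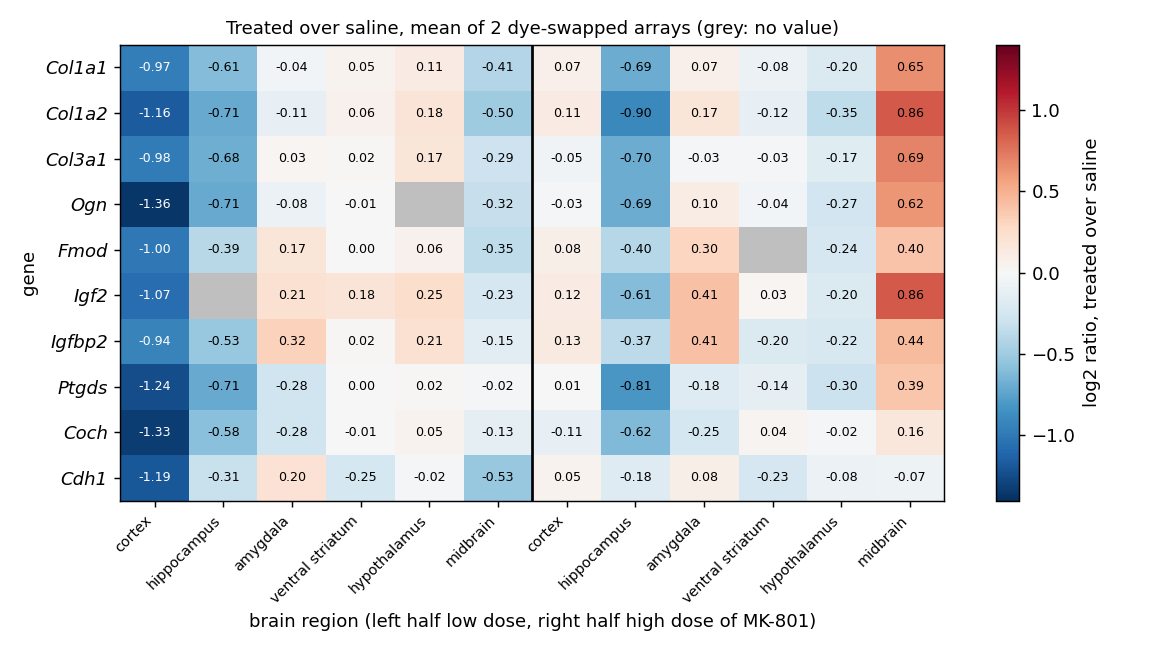
Log2 ratio of treated over saline for the 10 genes (rows) in the 6 regions at the low dose (left) and the high dose (right); each cell is the mean of 2 dye-swapped arrays, and grey marks a pair with an outlier spot. The low-dose cortex column runs from -1.36 to -0.94, the hippocampus is negative at both doses, and the midbrain is negative at the low dose and, except for Cdh1, positive at the high dose.

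Outside the cortex the sign depended on region and dose. In the hippocampus the members were below saline at both doses, with a median of -0.61 over the 9 with a value at the low dose and of -0.65 over 10 at the high dose. In the midbrain the median was -0.30 at the low dose, with 10 of 10 below 0, and 0.53 at the high dose, with 9 of 10 above 0. Past 1.5-fold lower were 5 members in the low-dose hippocampus (0.107% of all genes) and 7 in the high-dose hippocampus (0.179%), and past 1.5-fold higher were 5 in the high-dose midbrain (0.174%). Medians in the amygdala were 0.00 and 0.09 at the low and high dose, in the ventral striatum 0.01 and -0.08, and in the hypothalamus 0.11 and -0.21. In the hypothalamus the pair means were thus just above saline for 8 of 9 members at the low dose. They were below it for 10 of 10 at the high dose. Both arrays were above 0 for 4 members at the low dose and below 0 for 7 at the high dose. Of all genes, 50.5% and 47.9% were below 0 there at the low and high dose.

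Over the 6 regions the means of the members were below 0 for 10 of 10 at the low dose and for 7 of 10 at the high dose, with a wide spread between regions. The limma fit over regions called 0 of the 10 members at the low dose, where it called 2.87% of 20076 genes at a Benjamini-Hochberg adjusted p below 0.05, and 2799 genes had an unadjusted p below 0.05. It called 0 of 9 members tested at the high dose, beside 2.63% of 18802 genes (2387 at an unadjusted p below 0.05). For high minus low dose it called 0 of 9, beside 2.04% of 17996 genes (2120 at an unadjusted p below 0.05). Nothing is read from these counts. Cdh1 was the member left out at the high dose, because it was not well above background in every region. The median of the 10 member means was -0.33 at the low dose, -0.04 at the high dose and 0.28 for the difference, and the SD of a member over regions reached 0.80.

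Collagen I, the main fibre-forming collagen of meninges, is built from chains encoded by Col1a1 and Col1a2, and Col3a1 encodes collagen III, which forms finer fibrils with it. The brightest Col1a2 probe read -1.27 and -1.05 on the first and second array of the low-dose cortex, a mean of -1.16 ± 0.16 (SD of 2 arrays), or 2.24-fold lower than saline. It read 0.05 and 0.17 in the high-dose cortex. In the hippocampus it read -0.60 and -0.82 at the low dose and -0.76 and -1.03 at the high dose, so all 4 arrays lay on the same side. In the midbrain it read -0.47 and -0.53 at the low dose and 0.90 and 0.83 at the high dose, where it was 1.82-fold higher than saline, and the arrays of both doses do not overlap. The arrays of the remaining regions stayed nearer to saline: amygdala -0.14 and -0.07 (low) and 0.21 and 0.12 (high), ventral striatum 0.02 and 0.09 (low) and -0.17 and -0.06 (high), hypothalamus 0.17 and 0.20 (low) and -0.35 on both arrays (high).

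Col1a1 and Col3a1 had nearly the same pattern. Col1a1 averaged -0.97 ± 0.01 in the low-dose cortex, -0.61 ± 0.18 and -0.69 ± 0.15 in the hippocampus at the low and high dose, and -0.41 ± 0.27 and 0.65 ± 0.13 in the midbrain. Col3a1 averaged -0.98 ± 0.04 in the low-dose cortex, -0.68 ± 0.02 and -0.70 ± 0.11 in the hippocampus, and -0.29 ± 0.01 and 0.69 ± 0.06 in the midbrain. In the high-dose cortex they averaged 0.07 and -0.05. The difference of high minus low dose in the cortex was smallest for Col3a1 among the 10 genes, at 0.93.

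The collagen probes are shown because probes of these genes share sequence and because those of Col1a1 differed in their ratios. All probes are 60 bases long, and positions refer to the rn3 build as printed in the files. The Col1a1 probe A_44_P419137 (chr10:83652273-83652332, plus strand) and the Col3a1 probe A_44_P146518 (chr9:44318879-44318938, plus strand) overlap in 41 aligned bases, of which 29, or 70.7%, are identical. Capitals mark those shared bases, and the longest unbroken run of them is 8. The other sequences are the Col1a1 probe A_44_P350521 (chr10:83652326-83652385, plus strand) and the Col1a2 probe A_44_P458851 (chr4:29463744-29463803, plus strand). A_44_P350521 also shares a run of 10 bases with the Col3a1 probe, which is not marked by capitals.
Col1a1 A_44_P419137: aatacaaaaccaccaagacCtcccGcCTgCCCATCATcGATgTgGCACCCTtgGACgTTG
Col3a1 A_44_P146518: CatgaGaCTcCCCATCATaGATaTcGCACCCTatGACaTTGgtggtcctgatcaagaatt
Col1a1 A_44_P350521: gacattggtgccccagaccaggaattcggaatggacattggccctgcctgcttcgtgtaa
Col1a2 A_44_P458851: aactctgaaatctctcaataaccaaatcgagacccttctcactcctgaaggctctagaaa

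The probes of Col1a1 and of Col1a2 differed in the size of their ratios. The brightest Col1a1 probe read -0.97 in the low-dose cortex. A_44_P350521 and A_44_P419137 read -0.32 and -0.18, and the Col3a1 probe read -0.98. These 2 Col1a1 probes were dimmer, with a mean log2 brightness of 9.62 and 9.42 against 11.78. The part of brightness or of shared bases in the smaller ratios was not tested. In the high-dose midbrain the 3 Col1a1 probes read 0.65, 0.43 and 0.13. For Col1a2, A_44_P458851 read -0.91 against -1.16 in the low-dose cortex, -0.45 against -0.90 in the high-dose hippocampus and 0.66 against 0.86 in the high-dose midbrain. The brightest probe of each gene, which stands for the gene in all other values, had the largest of these ratios.

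**Figure D2:**
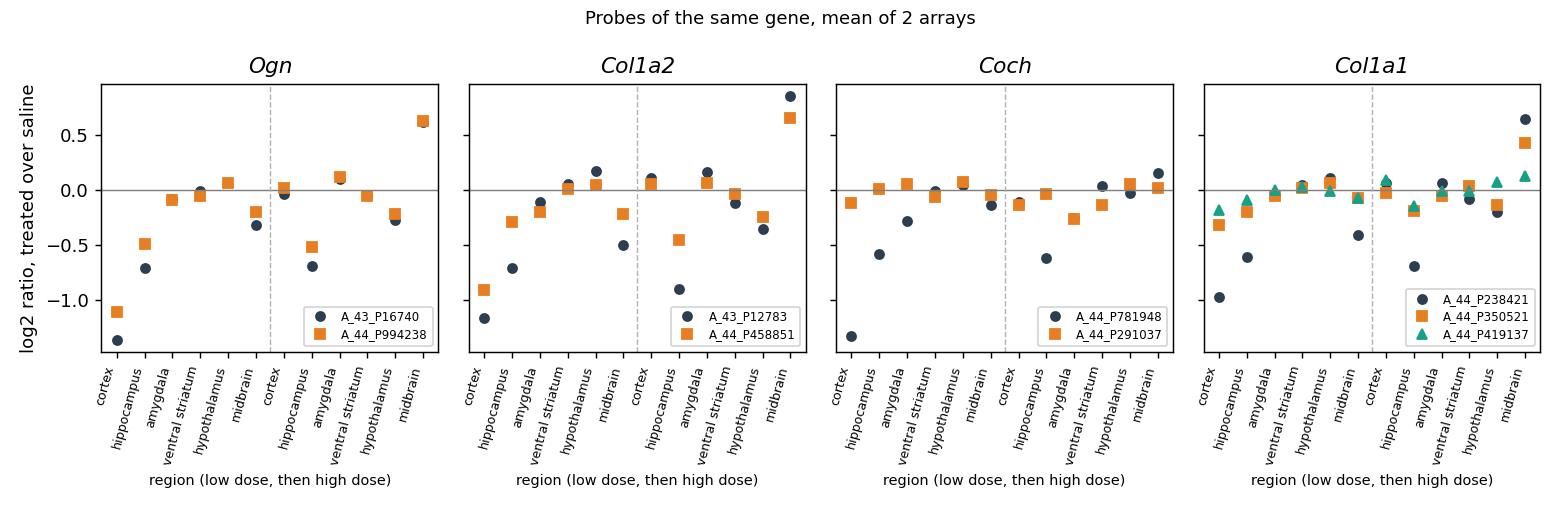
Log2 ratio of treated over saline (mean of 2 arrays) in the 6 regions at the low dose and then the high dose, for every probe of the 4 genes that have more than 1. The probes of Ogn and Col1a2 follow each other, while in the low-dose cortex the Coch probes read -1.33 and -0.12 and the Col1a1 probes -0.97, -0.32 and -0.18.

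Ogn encodes osteoglycin and Fmod fibromodulin, small leucine-rich proteoglycans of connective tissue; fibromodulin binds collagen fibrils. Ogn had the lowest ratio of all 19996 genes with a value in the low-dose cortex. Its arrays read -1.22 and -1.50 there, a mean of -1.36 ± 0.20, or 2.57-fold lower than saline, and -0.01 and -0.05 in the high-dose cortex. In the hippocampus they read -0.58 and -0.83 at the low dose and -0.66 and -0.71 at the high dose. In the midbrain they read -0.18 and -0.45 at the low dose and 0.70 and 0.53 at the high dose, without overlap.

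In the amygdala and ventral striatum the 8 arrays of Ogn lay between -0.19 and 0.18. In the low-dose hypothalamus its first array was an outlier spot and the second read 0.09, so this pair has no mean. At the high dose the hypothalamus read -0.27 and -0.28. The second Ogn probe, A_44_P994238 (chr17:20988620-20988679, minus strand), is shown because it measured every pair and kept the pattern.
Ogn A_44_P994238: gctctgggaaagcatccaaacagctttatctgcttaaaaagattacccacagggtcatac
It averaged -1.11 in the low-dose cortex, -0.49 and -0.52 in the hippocampus at the low and high dose, -0.20 and 0.63 in the midbrain, and 0.07 in the low-dose hypothalamus.

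Fmod averaged -1.0 ± 0.03 in the low-dose cortex, with arrays at -0.98 and -1.02, and 0.08 ± 0.08 in the high-dose cortex. Its hippocampal ratios were smaller than those of Ogn, at -0.39 ± 0.04 and -0.40 ± 0.02. In the amygdala it was above saline on all 4 arrays, at 0.25 and 0.09 (low) and 0.27 and 0.33 (high). Of 9 other small leucine-rich proteoglycan genes on the array 7 were tested at the low dose and 6 at the high dose, and limma called 0 in any of the 3 comparisons. Of those 7, 7 were below 0 in the low-dose cortex, with a median of -0.23 and the lowest value, -0.59, for Omd. At the high dose 6 of 6 were above 0 in the midbrain, with a median of 0.50.

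Igf2 encodes an insulin-like growth factor, and Igfbp2 a secreted protein that binds it. Igf2 averaged -1.07 ± 0.31 in the low-dose cortex, with arrays at -1.29 and -0.86, and 0.12 ± 0.38 in the high-dose cortex, with arrays at -0.15 and 0.38. On 11 of the 11 pairs with 2 values the array with treated RNA in Cy3 read higher, by 0.09 to 0.53, and for Ogn it read lower on 10 of 11 pairs and for Cdh1 on 11 of 12, differences by dye orientation that the mean of a pair balances. In the high-dose midbrain it averaged 0.86 ± 0.17, or 1.82-fold higher, and in the low-dose midbrain -0.23 ± 0.23. In the low-dose hippocampus its second array was an outlier spot and the first read -0.82.

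Igfbp2 averaged -0.94 ± 0.04 in the low-dose cortex, with arrays at -0.91 and -0.97, and 0.13 ± 0.11 in the high-dose cortex. It averaged -0.53 ± 0.09 and -0.37 ± 0.35 in the hippocampus at the low and high dose. The arrays of the high-dose midbrain read 0.11 and 0.77, so its mean of 0.44 rests mostly on the second. Both IGF genes were above saline on all 4 amygdala arrays: Igf2 averaged 0.21 and 0.41 at the low and high dose, and Igfbp2 0.32 and 0.41.

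Beside Igf2 and Igfbp2, 10 genes of the IGF axis were on the array, and limma called 0 of the 8 tested in each comparison. Their median in the low-dose cortex was -0.04, from -0.17 for Irs2, an adaptor of insulin and IGF receptors, to 0.04 for Igfbp3. In the high-dose midbrain it was 0.01.

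Ptgds encodes the lipocalin-type prostaglandin D synthase. Its arrays read -1.31 and -1.17 in the low-dose cortex, a mean of -1.24 ± 0.10, or 2.36-fold lower than saline, and 0.02 and -0.01 in the high-dose cortex. In the hippocampus they read -0.82 and -0.59 at the low dose and -0.93 and -0.69 at the high dose, 1.63-fold and 1.75-fold lower. In the midbrain they read -0.03 and -0.01 at the low dose and 0.34 and 0.43 at the high dose. At the low dose Ptgds was thus the member nearest to saline in the midbrain and the fifth lowest of all genes in the cortex.

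In the amygdala the 4 Ptgds arrays were all below saline, at -0.20 and -0.35 (low) and -0.06 and -0.30 (high), where Igf2, Igfbp2 and Fmod were above it. In the ventral striatum they read 0.04 and -0.04 (low) and -0.16 and -0.12 (high). In the hypothalamus they read -0.07 and 0.12 (low) and -0.42 and -0.19 (high). The probe, A_43_P15529, is listed at chr3:3633310-3633779 on the minus strand, a span of 470 bases for a probe of 60, so its sequence is not contiguous there.
Ptgds A_43_P15529: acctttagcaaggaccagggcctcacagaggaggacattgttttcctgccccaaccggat

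**Figure D3:**
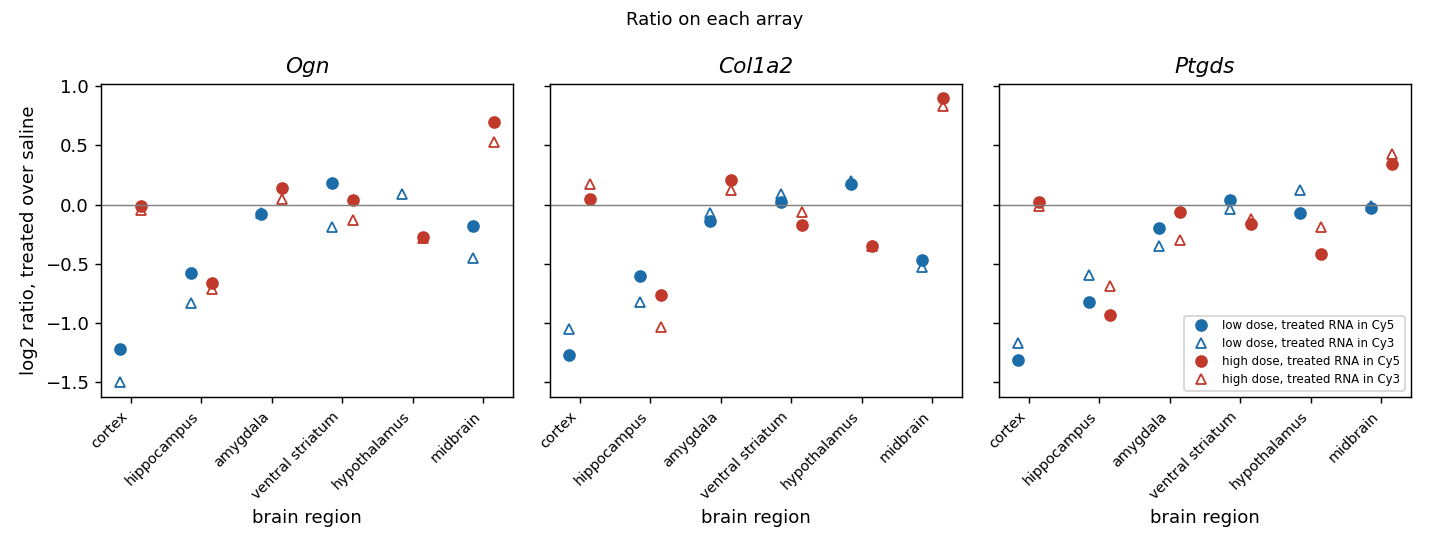
Log2 ratio of treated over saline on each single array for Ogn, Col1a2 and Ptgds, by region and dose; the symbol marks the dye of the treated RNA. Both arrays of the low-dose cortex lie between -1.50 and -1.05 for the 3 genes, while those of the high-dose cortex lie between -0.05 and 0.17.

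Of 16 other genes of prostaglandin synthesis and reception on the array, 10 were tested at the low dose and 9 at the high dose. limma called 1 higher at the low dose: Hpgds, the hematopoietic prostaglandin D synthase, rose by 0.27 ± 0.03 (SE over 6 regions, adjusted p = 0.00028) and was above saline in 6 of 6 regions. For high minus low dose Hpgds fell by 0.33 (mean -0.33 ± 0.04, adjusted p = 0.000452), a call that was lost without the arrays with treated RNA in Cy3 (mean -0.31, adjusted p = 0.0528). Where Ptgds averaged -1.24, in the low-dose cortex, Hpgds averaged 0.18 and the median of the 10 genes was -0.08. Ptgis, the prostacyclin synthase, was at 0.60 in the high-dose midbrain and was not called.

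Coch encodes cochlin, a secreted matrix protein best known from the inner ear. Its brightest probe read -1.37 and -1.29 in the low-dose cortex, a mean of -1.33 ± 0.06, or 2.51-fold lower than saline, and -0.16 and -0.05 in the high-dose cortex. In the hippocampus it averaged -0.58 ± 0.03 and -0.62 ± 0.19 at the low and high dose. It was below saline on all 4 amygdala arrays, with means of -0.28 and -0.25, and in the midbrain it averaged -0.13 and 0.16. The second probe was dimmer, with a mean log2 brightness of 8.16 against 9.96. It gave no such ratios in cortex and hippocampus: it read 0.02 and -0.25 in the low-dose cortex and averaged 0.01 and -0.03 in the hippocampus. In the amygdala it averaged 0.06 at the low dose and, like the first probe, was below saline at the high dose, at -0.26. The pair is shown because the choice of probe decides the Coch values of cortex and hippocampus. A_44_P781948 lies at chr6:71708638-71708697 and A_44_P291037 at chr6:71699454-71699987, a span of 534 bases, both on the plus strand.
Coch A_44_P781948: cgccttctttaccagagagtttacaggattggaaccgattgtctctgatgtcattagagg
Coch A_44_P291037: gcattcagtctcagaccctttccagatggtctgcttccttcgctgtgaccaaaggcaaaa

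Cdh1 encodes E-cadherin, which joins epithelial cells. It read -1.03 and -1.35 in the low-dose cortex, a mean of -1.19 ± 0.23, or 2.28-fold lower than saline, and 0.14 and -0.04 in the high-dose cortex. Its midbrain differed from the collagens, with -0.53 ± 0.10 at the low dose and -0.07 ± 0.01 at the high dose. It was the dimmest member. In the ventral striatum treated RNA was not well above background on either low-dose array, where it was at least 1.19-fold lower than saline. At the high dose treated RNA was also not well above background on either array of hippocampus, ventral striatum and hypothalamus, and saline RNA was not on 1 array of each pair. Of 10 other epithelial and arachnoid barrier genes 6 were tested at the low dose and 4 at the high dose, and limma called 0. Their median in the low-dose cortex was -0.03, and the lowest was Krt18, a keratin of simple epithelia, at -0.23.

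Because both doses were set against saline RNA, the channel levels are given beside the ratios. These are log2 intensities after loess and between-array scaling, and are compared within a probe only. In the cortex the Ogn saline channels read 10.85 and 10.96 on the low-dose arrays and 11.39 and 11.14 on the high-dose arrays, while treated RNA read 9.63 and 9.46 at the low dose and 11.38 and 11.09 at the high dose. Over the 10 genes the treated level at the high dose exceeded that at the low dose by 0.55 (Coch) to 1.69 (Ogn) in the cortex. The saline level on the same arrays differed by -0.67 (Coch) to 0.36 (Ogn). Saline levels also differed within a pair, as for Col1a1 in the high-dose cortex, at 11.24 and 12.5. Which side differed between arrays was not tested. In the midbrain the treated difference was 0.11 (Coch) to 1.22 (Col3a1) and the saline difference -0.33 to 0.39.

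**Figure D4:**
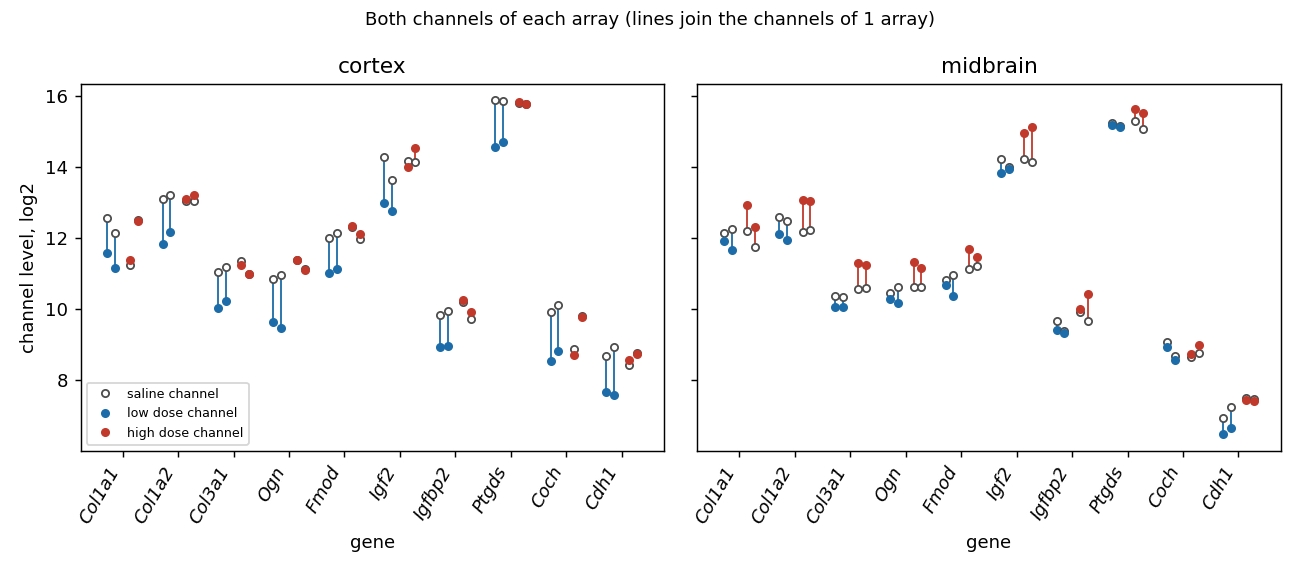
Log2 intensity of the saline and treated channels on the low-dose and high-dose arrays for each of the 10 genes in cortex and midbrain; points are single channels, and a line joins both channels of an array. In the low-dose cortex the treated channels lie below the saline channels for every member, as for Ogn with 9.63 and 9.46 against 10.85 and 10.96.

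In saline RNA all 10 genes had their highest mean in the amygdala. With the processed signals, and with the saline channels of the low-dose arrays alone, 9 did, and Coch was highest in the ventral striatum. The range between the highest and lowest region was 2.05 on the log2 scale for Col3a1 (4.14-fold) to 3.03 for Fmod (8.17-fold). With the processed signals it was 2.18 for Col3a1 and 2.91 for Fmod, and it reached 3.48 for Coch, 3.71 for Igfbp2 and 4.16 for Cdh1, the dimmest member. In the main processing the range stood against a median SD between channels of a region of 0.10 (Ogn) to 0.37 (Col1a1). The lowest region was the ventral striatum for 6 genes, the hypothalamus for Col1a1, Col3a1 and Fmod, and the hippocampus for Coch. These levels helped to choose the genes and are given as a description. Of 6 choroid plexus genes, 5 also had their highest saline level in the amygdala. The part of choroid plexus RNA in the saline levels of the members was not tested.

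Ogn had a mean of 12.18 ± 0.08 (SD of 4 channels) in the amygdala, 11.09 ± 0.24 in the cortex, 10.58 ± 0.08 in the midbrain, 10.40 ± 0.11 in the hippocampus, 10.10 ± 0.02 in the hypothalamus (3 channels) and 9.45 ± 0.25 in the ventral striatum. Among neighbours in this order the channels overlapped for midbrain and hippocampus alone. Col1a2 followed the same order, from 14.10 ± 0.23 in the amygdala and 13.10 ± 0.08 in the cortex to 11.09 ± 0.23 in the ventral striatum, and neighbours from the midbrain downwards overlapped. Ptgds had 16.54 ± 0.30 in the amygdala, 15.82 ± 0.05 in the cortex and 13.96 ± 0.36 in the ventral striatum. Its midbrain, hippocampus and hypothalamus lay at 15.18, 15.14 and 15.08 and overlapped.

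Several members departed from this order. The Coch channels of the ventral striatum (11.72 ± 0.34) and the amygdala (11.76 ± 0.25) overlapped, and its next region was the hypothalamus at 9.74. Its second probe also had ventral striatum (9.11) and amygdala (8.66) on top, in the opposite order. For Fmod the hippocampus (11.50) lay above the midbrain (11.03) without overlap. For Col1a1 and Col3a1 the ventral striatum (11.07 and 9.90) lay just above the hypothalamus (11.04 and 9.82), with overlap. Cdh1 kept the order of Ogn, but its amygdala (8.87 ± 0.10) and cortex (8.72 ± 0.21) overlapped, and the cortex lay 1.42 above the midbrain. For Igf2 the midbrain (14.15) lay above the cortex (14.05), with overlap. For Igfbp2 the hypothalamus (9.91) lay above the midbrain (9.65) and overlapped the cortex (9.93).

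**Figure D5:**
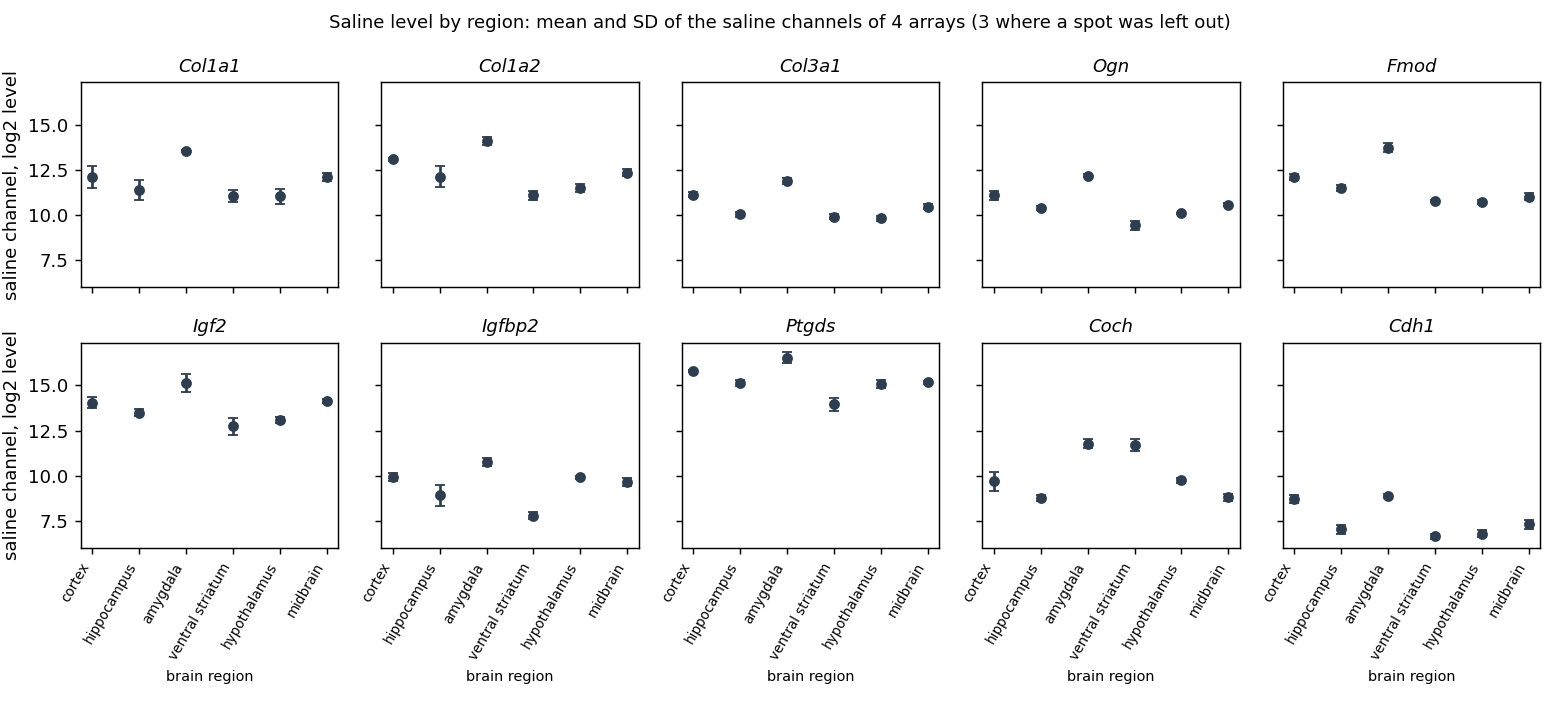
Log2 intensity in the saline channels by region for each of the 10 genes, as the mean (point) and SD (bar) of the channels of 4 arrays, or of 3 where a spot was left out; levels of different genes are not comparable. The amygdala has the highest mean for every gene in this scaling, and Coch has similar means in amygdala (11.76) and ventral striatum (11.72).

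The other meningeal and fibroblast genes showed smaller ratios in the same regions. In the low-dose cortex 28 of 29 were below 0, with a median of -0.33 and the lowest value, -1.07, for Gjb2, a gap junction gene of meningeal cells, and 5 were past 1.5-fold lower. At the high dose 29 of 29 in the midbrain were above 0, with a median of 0.28 and the highest value, 0.62, for Aspn, another leucine-rich proteoglycan. In the hippocampus the median was -0.10 at both doses, with 21 of 28 and 24 of 29 below 0. Dcn, Bgn, Lum, Omd, Aspn and Prelp stand on this list and on that of the proteoglycans. In saline 18 of the 29 were highest in the amygdala and 6 in the hippocampus.

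Over the 6 regions limma called 1 of these genes, at the low dose: Slc6a13, a GABA and taurine transporter of the meninges, fell by 0.31 (mean -0.31 ± 0.06, adjusted p = 0.0188) and was below saline in 6 of 6 regions, with -0.64 in the cortex and -0.48 in the hippocampus. The call was lost with the processed signals (adjusted p = 0.0721), the deposited table (0.0727) and without the hippocampus (0.0767). limma called 0 of 29 at the high dose and 0 of 28 for high minus low dose.

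Among 22 genes of collagen maturation 20 were tested at the low dose and 18 at the high dose. P3h3, a prolyl 3-hydroxylase family member, rose by 0.49 ± 0.04 at the low dose (adjusted p = 6.44e-05, above saline in 5 of 5 regions with a value) and fell by 0.74 at the high dose (mean -0.74 ± 0.04, adjusted p = 3.33e-06, below saline in 6 of 6). P4ha1, a subunit of prolyl 4-hydroxylase, fell by 0.14 at the high dose (mean -0.14 ± 0.03, adjusted p = 0.0244). That call was lost under 8 of 17 alternatives: median centring (adjusted p = 0.273), the processed signals (0.106), the deposited table (0.125), without the cortex (0.0546), amygdala (0.0716), ventral striatum (0.057) or hypothalamus (0.0729), and without the arrays with treated RNA in Cy5, where the mean was -0.03 (adjusted p = 0.589). The median of the list was -0.02 at the low dose and 0.00 at the high dose. The P3h3 ratios were of like size in every region, from 0.34 to 0.64 at the low dose, unlike those of the collagens.

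Markers of other cell types moved with some of these results. In the hippocampus 6 of 6 choroid plexus genes tested were below saline at the low dose, with a median of -0.37, and 4 of 5 at the high dose, with a median of -0.20. Past 1.5-fold lower were 2 at each dose: Ttr, the transthyretin of the choroid plexus, at -2.20 and -2.62, and Sostdc1 at -1.56 and -1.35. The level summed over all 6 choroid plexus genes tested at the low dose is given as its log2. It was 13.27 and 13.35 in saline and 11.55 and 11.42 in treated RNA at the low dose. At the high dose it was 13.22 and 13.02 against 11.30 and 11.07. In the high-dose amygdala, where Igf2 and Igfbp2 averaged 0.41, the choroid plexus median was 0.90, and in the high-dose hypothalamus Ttr averaged -2.0. The part of choroid plexus RNA in the hippocampal, amygdalar and hypothalamic values was not tested. In the low-dose cortex the summed choroid plexus level was 9.87 and 10.04 in saline and 9.85 and 9.79 in treated RNA, and in the high-dose midbrain 10.61 and 10.63 against 10.61 and 10.57. limma called 0 choroid plexus genes over regions.

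Of the blood cell genes, 3 of 5 tested were called lower at the low dose, 3 of 4 higher at the high dose and 4 of 4 higher for high minus low dose. Hbb, a beta globin, fell by 0.54 at the low dose (mean -0.54, adjusted p = 0.00417) and its difference of high minus low was 0.88 (adjusted p = 3.48e-05). The 5 blood genes had a median of -0.12 in the low-dose cortex, and 4 had one of 0.26 in the high-dose midbrain. Of the endothelial and mural genes, Kdr, the main VEGF receptor, fell by 0.30 at the low dose (mean -0.30, adjusted p = 0.00313) and by 0.18 at the high dose (mean -0.18, adjusted p = 0.0139). At the high dose 14 of 16 endothelial and mural genes were above 0 in the midbrain, with a median of 0.13 and Tagln, a smooth muscle gene, at 0.74. The part of blood and vessel RNA in the member ratios was not tested.

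Of the neuronal genes limma called 0 of 9 in each comparison. Of 9 microglial genes 5 were called higher at the low dose, with C1qc at 0.22 (adjusted p = 0.000346). Of 11 oligodendrocyte genes, a cell type that also makes Ptgds, 2 were called higher at the low dose, with Aspa at 0.26 (adjusted p = 0.000634), and 0 lower.

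The genes whose ratios over the 12 combinations were most like the mean of 6 members were sought among 15656 genes. These 6 were tested at both doses and had a value in every combination. The highest Pearson correlations were those of Crabp2 (0.983), Fn1 (0.981), Cdkn1c (0.965), Vim (0.963), Serping1 (0.959), Rarres2 (0.955), Emp3 (0.951), Mrc1 (0.944), Slc13a3 (0.936) and Thbs2 (0.935). These are descriptions over 12 values in which both doses of a region share the saline group and slide. Crabp2, a retinoic acid binding protein, averaged -0.94 in the low-dose cortex and -0.54 in the low-dose hippocampus. Fn1, the gene of fibronectin, averaged -0.41 and -0.17 there, a smaller range of the same shape.

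Among the members ranked, the 15 pairs had correlations with a median of 0.90 and a lowest value of 0.77. Col1a1 and Col1a2, whose chains assemble together, were each other's nearest gene of all those ranked, at 0.995, and Col3a1 was nearest to Col1a1, at 0.988. Ptgds was nearest to Slc13a3, a dicarboxylate transporter, at 0.967, Igfbp2 to Thbs2, a matrix glycoprotein, at 0.979, and Coch to Ptgds, at 0.941. Ogn, Fmod and Igf2 had an incomplete set of values and were not ranked. Cdh1 had a value in every combination but was not ranked, because it was not tested at the high dose.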

How the data were processed

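RNA of 6 brain regions was compared on 24 Agilent arrays of 2 colours. The deposited scanner files hold spot intensity values from Feature Extraction 9.5.3.1, per the file headers. The authors' deposited value table holds log10 ratios, which matched the treated over saline ratio of the processed signals within 0.01 for 100% of values. These were turned into log2 values as an alternative. RNA was purified on silica columns and linearly amplified, per the labels' protocols.

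From the mean and background signals, ratios were computed with limma 3.58.1 in R 4.3.3 (normexp with offset 50, loess within arrays, outlier spots left out), turned to treated over saline and averaged over spots and over the 2 arrays of a pair. A pair with an outlier spot has no mean. The brightest probe stood for a gene. Genes well above background on both arrays in all 6 regions were tested over regions with limma and Benjamini-Hochberg adjustment at 0.05, needing at least 4 regions. Regions may come from the same 9 rats, so p-values measure the spread between regions, not between animals. Channel levels were scaled between arrays (Aquantile). The fits were also run on simulated data in which regions were independent, which cannot show their error rate where regions share rats.

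The members and gene lists were chosen with earlier results of these data known. Named genes are all members, up to 4 called genes of each matrix, IGF, prostaglandin or epithelial list and up to 2 of each other cell type list, by the size of the mean; the 10 genes most like the members and each member's nearest gene; other names were chosen after their values were seen. Gene names were updated through RefSeq's GRCr8 table for 10735 probes by accession, 5571 by symbol and 3729 by synonym, and 20977 probes kept the file's name. Alternatives were other background corrections and normalizations, the deposited table, probe averages, looser filters, kept outliers, each region or array left out, and the scan day as a block, and for saline levels quantile normalization, processed signals and the arrays of 1 dose. Array number and signal over background limit the precision.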

Additional observations from a re-analysis of the deposited data

Results flagged for a closer look

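In saline channels, 9 of 57 sets of 4 channels had 1 channel far from the other 3 by Dixon's test, which chance does in about 1 in 20 sets. In the amygdala the first high-dose array was that channel for 6 genes: it was the lowest for Col1a2 (13.76), Ptgds (16.09) and Igf2 (14.39), and the highest for Col3a1 (12.13), Igfbp2 (11.08) and Fmod (14.14). The others were Ogn in the midbrain (10.46, lowest, first low-dose array), Col1a1 in the ventral striatum (10.57, lowest, second high-dose array) and Col1a2 in the hypothalamus (11.18, lowest, first low-dose array). None of the 20 sets of member ratios over regions was set apart by this test.

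The array medians of the members had opposite signs on all arrays of some groups, and these differences were not tested. High minus low dose, the midbrain differed by 0.89 and the hypothalamus by -0.33. At the low dose the hypothalamus exceeded the cortex by 1.18, the hippocampus by 0.69 and the midbrain by 0.40. At the high dose the amygdala exceeded the hippocampus by 0.76, the hypothalamus by 0.37 and the ventral striatum by 0.26, and the midbrain exceeded the same 3 regions by 1.22, 0.83 and 0.72.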

How the results depend on the processing

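Of 308 comparisons of main results with an alternative, 273 stayed within the spread between replicates or within 1.5 times the main count. For member and list medians over regions, the replicates were the regions, not the arrays. That spread is wide, so staying within it says little about stability. Without the cortex the low-dose member median was -0.18, against -0.33, and counted as unchanged. The median for high minus low dose, 0.12 without the cortex against 0.28, also counted as unchanged. Of the 273, 2 values near 0 changed sign. The median of the member means at the high dose was 0.09 without the hippocampus, against -0.04. That of the other meningeal genes at the high dose was -0.01 without the midbrain, against 0.03. Values of single genes changed sign in 22 further cases, over 11 results. The mean of Cdh1 over regions moved with the processed signals and with the deposited table. It was -0.92 with each at the low dose, against -0.35, and -0.47 at the high dose, against -0.07. The median saline range over regions was 2.62 to 2.80, against 2.65. The member median in the low-dose cortex ranged from -1.13 to -1.02, where the mean over probes gave -1.02 and leaving out 1 array of each pair gave -1.12 to -1.04. Medians of the low-dose hippocampus were -0.68 with offset 16, -0.71 with the processed signals and the deposited table, -0.50 with the mean over probes and -0.63 with outliers kept, and -0.60 to -0.59 with 1 array left out. Those of the high-dose hippocampus were -0.96 under median centring, -0.82 with the processed signals and the deposited table, -0.50 with the mean over probes and -0.68 to -0.57 with 1 array left out. The high-dose midbrain gave 0.42 with the mean over probes and 0.55 to 0.63 with 1 array left out, the high-dose ventral striatum -0.02 under median centring and -0.16 to -0.10 with 1 array left out, the high-dose cortex 0.00 to 0.02 and the high-dose amygdala 0.08 to 0.18 with 1 array left out.

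Counts of called genes over all genes moved more. Median centring gave 135 at the high dose and 93 for high minus low dose. With 1 dye orientation alone, where dye effects stay in the ratio, 6954 to 7942 genes were called at the low dose, 6195 to 7263 at the high dose and 154 to 283 for high minus low dose, and up to 6 members were called at the low dose. Without the ventral striatum 374 genes were called at the low dose, 314 at the high dose and 234 for high minus low dose, where leaving out other regions gave up to 307; without the cortex 299 and without the amygdala 319 were called at the high dose. With the scan day as a block 1 member, Fmod, was called for high minus low dose (mean 0.46, adjusted p = 0.0389). By scan day the member median was -0.53, -0.16 and -0.25 at the low dose and -0.04, 0.35 and -0.42 at the high dose, each day holding 2 regions. No analysis paired by animal was possible, because the replicate numbers mark the dye orientation of 2 arrays. Each pair was counted as 1 replicate, and high minus low dose was fitted on differences within a region.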

Other observations

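In the low-dose cortex the 15 lowest genes held 5 that are not members, chosen here after their values were seen: Tnnt2 at -1.29, RGD1307559 at -1.26, Gjb2 at -1.07, Prrx2, a homeobox gene of mesenchyme, at -1.05 and Crabp2 at -0.94. In the high-dose midbrain the 20 highest genes held Col1a2, Igf2 and Col3a1, and among those with a gene symbol also Map3k14 (0.87), Apold1 (0.84), Sgk1 (0.79), Tst (0.77), Cilp (0.75), Tagln (0.74), Abcg2 (0.73), Des (0.71), Tpm2 (0.68) and Myh11 (0.65). In the low-dose hippocampus the choroid plexus genes Ttr (-2.20) and Sostdc1 (-1.56) were the lowest of 19662 genes, ahead of all members.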
